A study of Caenorhabditis elegans with 18 samples.

Results

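Loss of lin-35, the worm counterpart of the retinoblastoma gene, was compared between an early and a late larval stage of Caenorhabditis elegans. For each probe set the strain effect was lin-35(n745) minus N2, and the quantity reported is the strain effect at L4 minus the strain effect at L1. It rests on 12 of the 18 arrays of the series, all arrays of these larval stages, and on 22548 of 22625 probe sets, since 77 control probe sets were left out. The 4 groups were N2 at L1, lin-35(n745) at L1, N2 at L4 and lin-35(n745) at L4, each with 3 arrays. N2 is the laboratory wild type. The n745 strain carries a loss-of-function allele of lin-35, and the labels name no other mutation or agent in either strain. Both strains were hermaphrodite populations raised at 20 °C on nematode growth medium plates seeded with the bacterium OP50, and the L1 labels call the populations synchronised. RNA came from whole animals grown and collected independently for each array.

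LIN-35 belongs to the pocket proteins, which bind E2F and DP transcription factors and repress transcription, in worms largely within the DREAM complex. In larval soma this complex keeps germline genes silent and restrains cell cycle genes. Between L1 and L4 the wild-type germ line grows from a pair of germ cells to a large tissue that enters meiosis and makes sperm, so a germline transcript in a whole worm can come from the germ line or from somatic cells that fail to silence it. Whole-worm RNA cannot tell these apart, nor can it tell fewer cells of a type from less RNA per cell.

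The lin-35 transcript itself was lower in the mutant to the same extent at both stages. At L1 its log2 values were 7.84, 7.82 and 7.86 in N2 and 6.51, 6.24 and 6.95 in lin-35(n745). At L4 they were 7.68, 7.71 and 7.60 in N2 and 6.49, 6.43 and 6.32 in the mutant. Every mutant array lay below every N2 array of its stage, and the difference between stages was 0.02 ± 0.21 (SE, n = 3 arrays per group here and below, limma adjusted p = 0.979). Sperm and oocyte markers in N2 rose between the labelled stages. The mean of 4 sperm markers was 5.03 at L1 and 7.44 at L4, and that of 4 oocyte markers was 6.68 and 8.89. The mean of 4 somatic gonad and vulva markers went the other way in N2, at 6.38 and 5.69. Markers of intestine, muscle, neurons and hypodermis had group means between 8.96 and 11.95. The lin-35(n745) L1 arrays stood apart from the rest. They correlated with each other at 0.9863 to 0.9894 across probe sets, against 0.9948 to 0.9973 within the other larval groups. In that group 157 probe sets had an SD over 1, against at most 12 in any other. Replicate 2 lay more than 1 log2 unit from the mean of the other 2 arrays for 310 probe sets, replicate 3 for 351 and replicate 1 for 139. The 16 hybridisation control probe sets also differed between groups, with means of 8.31 in N2 L1, 7.82 in mutant L1, 7.72 in N2 L4 and 7.82 in mutant L4. This is a difference of strain effects of 0.59, and its part in the results was not tested.

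The strain effect depended on stage for a minority of transcripts. Of the 22548 probe sets, 1515 passed at an adjusted p under 0.05, which is 6.72%, with 764 higher and 751 lower. Counted by gene, each represented by its brightest probe set, 592 of 17118 genes were higher (3.46%) and 636 were lower (3.72%). A higher difference means that the mutant stood higher against N2 at L4 than at L1, and a lower difference the reverse. Of the higher genes, 256 had the larger strain effect at L1, a lower value in the mutant that was smaller in size or of opposite sign at L4, and 336 had it at L4. Of the lower genes, 313 had the larger effect at L1 and 323 at L4. The median difference over all genes was -0.01. Without replicate 2 of lin-35(n745) L1 the number of probe sets called was 2447, with 1305 lower.

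**Figure D1:**
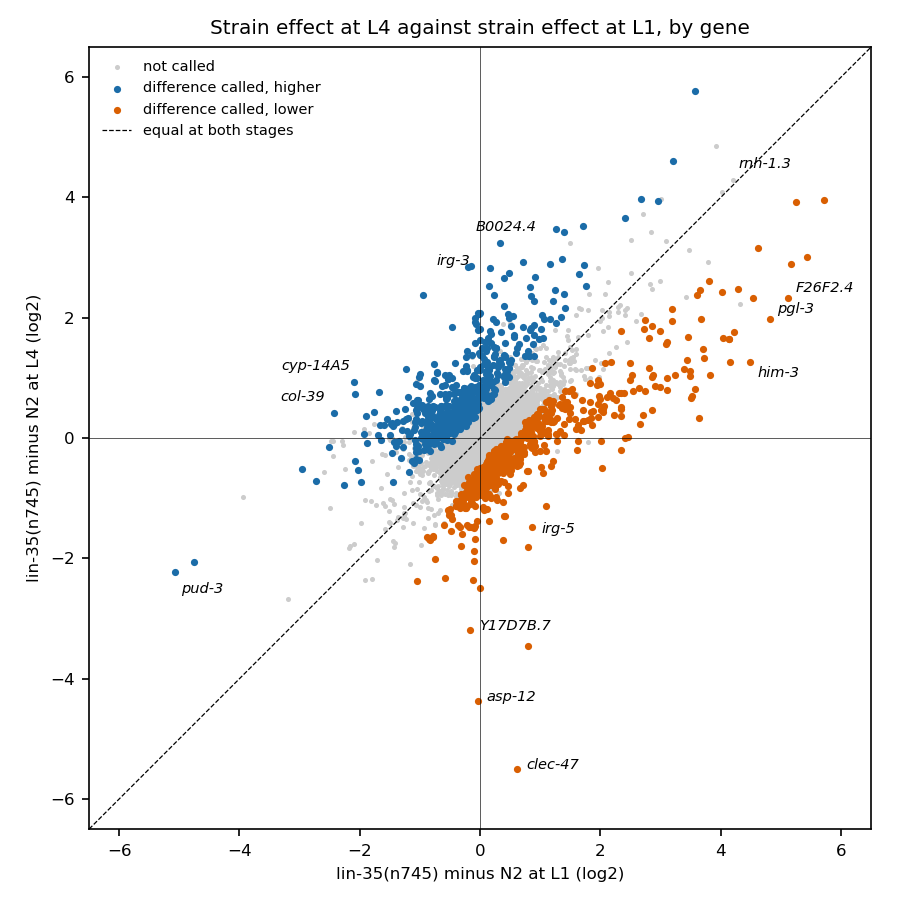
Each point is a gene, with the strain effect at L1 (lin-35(n745) minus N2, log2) on the horizontal axis and the strain effect at L4 on the vertical axis. The 592 genes called higher lie above the dashed line of equal effects and the 636 called lower lie beneath it, while rnh-1.3 lies on the line with effects of 4.20 and 4.29.

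At each stage by itself, the strains differed in a similar number of genes. At L1, 8.72% of genes were higher and 6.81% lower in the mutant, and at L4 8.24% were higher and 8.11% lower. These shares are the background for the strain effect counts of every list below. Of the 2658 genes called at L1 and the 2799 called at L4, 1140 were called at both, 1064 of them in the same direction and 76 in opposite directions. Among the 1228 genes called for the difference, 45 had no call of the strain effect at either stage. The ribonuclease H gene rnh-1.3, chosen after its values were seen, shows a strain effect that hardly moved with stage. Its values were 6.91, 6.87 and 6.81 in N2 L1, 11.17, 11.18 and 10.85 in mutant L1, 6.69, 6.46 and 6.56 in N2 L4, and 10.99, 10.81 and 10.77 in mutant L4. Mutant and N2 arrays were far apart at both stages, and the difference was 0.09 ± 0.20 (limma adjusted p = 0.888).

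Several germline genes were among the most negative differences. In N2 these were low at L1 and higher at L4, whereas in lin-35(n745) they were already high at L1. Averages of 4 sperm and of 4 oocyte markers were not higher in the mutant at L1. They were 5.03 in N2 and 4.87 in the mutant for sperm, and 6.68 and 6.33 for oocytes. Among the oocyte markers rme-2 had an L1 strain effect of 0.51, and oma-1, oma-2 and cbd-1 had -0.47, -0.51 and -0.92. In the oocyte list of 37 genes 7 were higher and 7 lower at L1. The clearest case of a germline gene already high at L1 was him-3, which encodes a protein of the meiotic chromosome axis. Its values were 6.14, 6.34 and 5.83 in N2 L1 and 10.69, 10.51 and 10.56 in mutant L1. At L4 they were 10.24, 10.11 and 10.003 in N2 and 11.44, 11.34 and 11.38 in the mutant. The mutant L1 arrays were above even the N2 L4 arrays, and the groups did not overlap at either stage. The strain effect was 4.48 ± 0.12 at L1, a 22.4-fold excess, and 1.27 ± 0.12 at L4, and the difference was -3.22 ± 0.17 (limma adjusted p = 2.57e-10).

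P granules, the RNA-protein bodies of germ cells, gave the same picture. pgl-3, which encodes a core P granule protein, had values of 5.65, 5.48 and 5.58 in N2 L1 and 10.42, 10.25 and 10.48 in mutant L1. At L4 they were 8.48, 8.42 and 8.45 in N2 and 10.57, 10.32 and 10.41 in the mutant. The mutant level was therefore about the same at both stages while the N2 level was 2.88 higher at L4, and the difference was -2.83 ± 0.14 (limma adjusted p = 1.76e-10). Its partner pgl-1 had values of 7.85, 7.61 and 7.60 in N2 L1, 10.82, 10.83 and 11.15 in mutant L1, 10.22, 10.13 and 10.21 in N2 L4, and 11.26, 11.21 and 11.27 in mutant L4. The excess was 3.25 ± 0.11 at L1 and 1.06 ± 0.11 at L4. For glh-1, a helicase related to Vasa, the excess was 2.85 ± 0.13 at L1 and 0.46 ± 0.13 at L4, with a difference of -2.39 ± 0.18 (limma adjusted p = 3.85e-08). The difference was -1.95 ± 0.16 for rnp-8, which encodes a partner of the cytoplasmic poly(A) polymerase GLD-2. It was -2.50 ± 0.19 for lotr-1, a P granule component chosen after its values were seen.

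The list of P granule and germline development genes held 44 measured members. In the difference 8 were lower (18.2%, beside 3.72% of all genes) and 0 higher, with a median of -0.13. Beside the genes above these were glh-4, lst-1, csr-1 and mog-1, named because the count is short and after their values were seen. All 8 had a higher N2 level at L4 than at L1, and 6 had the larger strain effect at L1. The remaining 36 did not pass. Repeated quantile normalization gave 3 higher members in place of 0, and leaving out lin-35(n745) L1 replicate 2 or 3 gave 1. In the strain effects 9 of the 44 were higher and 5 lower at L1, and 8 were higher and 6 lower at L4. The strain effect medians were 0.01 and -0.06.

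Meiosis genes were called in the same direction. Of 48 measured members 13 were lower (27.1%, beside 3.72% of all genes) and 0 higher, with a list median of -0.28. Without N2 L1 replicate 3 and without lin-35(n745) L4 replicate 2 the count was 7, and without N2 L4 replicate 1 it was 8. In the strain effects 15 of the 48 were higher and 0 lower at L1, and 8 were higher and 6 lower at L4. The strain effect medians were 0.07 and -0.06. syp-1, which encodes a central component of the synaptonemal complex, was 5.96, 5.54 and 5.90 in N2 L1 and 9.53, 9.20 and 9.06 in mutant L1. At L4 it was 7.91, 7.83 and 7.77 in N2 and 9.64, 9.45 and 9.43 in the mutant, so the mutant was above N2 at both stages with no overlap. The excess was 3.46 ± 0.14 at L1 and 1.67 ± 0.14 at L4. zhp-2, a RING finger gene of meiotic recombination, had a difference of -1.80 ± 0.19 (limma adjusted p = 3.63e-06). For htp-1, a paralogue of him-3, the mutant was higher at L1 by 1.63 and the L4 strain effect was -0.06, with a difference of -1.68 ± 0.27 (limma adjusted p = 0.000449). The defining germline genes gld-1 and htp-3 behaved otherwise. gld-1, a translational repressor of early meiosis, was -0.52 in the L1 strain effect and -0.06 at L4, and htp-3, another axis gene, was -0.19 and -0.68, and neither difference passed.

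**Figure D2:**
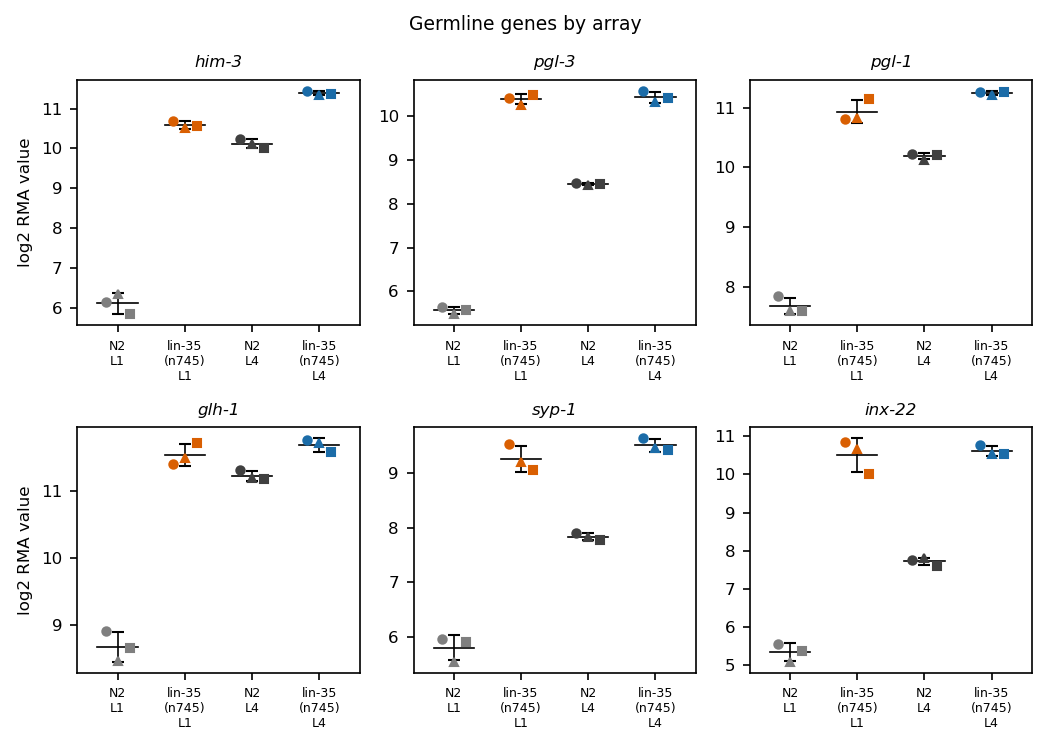
Log2 RMA values of 6 germline genes in the 12 larval arrays, with a horizontal bar for the group mean, a vertical bar for the SD over 3 arrays, and circles, triangles and squares for replicates 1, 2 and 3. For him-3 the mutant L1 arrays lie between 10.51 and 10.69, above N2 L4 at 10.003 to 10.24 and far above N2 L1 at 5.83 to 6.34.

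Transcripts tied to oocytes split by gene. Of 37 measured members 4 were higher and 4 lower (10.8% each, beside 3.46% and 3.72% of all genes), with a median of 0.18. The lower members included inx-21 and inx-22, which encode innexins of the gap junctions between germ cells and the somatic gonad. For inx-22 the values were 5.55, 5.09 and 5.38 in N2 L1, 10.85, 10.66 and 10.02 in mutant L1, 7.74, 7.80 and 7.61 in N2 L4, and 10.76, 10.55 and 10.54 in mutant L4. The mutant level was again about equal at both stages, and the difference was -2.27 ± 0.27 (limma adjusted p = 1.19e-05). The higher members went the other way: cbd-1 and chs-1, which act in making the eggshell, had differences of 0.95 ± 0.21 and 0.96 ± 0.20 and lower L1 values in the mutant, with L1 strain effects of -0.92 and -0.43. The yolk protein gene vit-2 was lower in the mutant at both stages, by effects of -1.44 and -1.72, and its difference of -0.28 ± 0.42 did not pass (limma adjusted p = 0.818). Its mean level over the larval arrays was not above the median of all probe sets. The vit-2 difference was -0.87 without N2 L1 replicate 1 and 0.13 without N2 L1 replicate 2.

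Sperm genes showed small differences. The major sperm proteins, the cytoskeletal proteins of nematode sperm, are encoded by nearly identical genes whose probe sets may read each other's transcripts. Of 23 measured members 5 were higher (21.7%, beside 3.46% of all genes) and 0 lower, with a median of 0.53. The strongest was msp-19, at 7.49, 6.99 and 6.71 in N2 L1, 5.57, 6.54 and 5.94 in mutant L1, 11.97, 11.93 and 12.02 in N2 L4, and 12.38, 12.41 and 12.63 in mutant L4. The deficit thus lay at L1, where levels were low, and the difference was 1.54 ± 0.27 (limma adjusted p = 0.000865). Counts with 1 array left out ran from 2 to 10. They were 2 without N2 L4 replicate 2 or 3 or without lin-35(n745) L4 replicate 2 or 3, and 3 without N2 L4 replicate 1. They were 9 without N2 L1 replicate 2 or lin-35(n745) L1 replicate 2, and 10 without N2 L1 replicate 3. In N2 L1 replicate 1 the list's mean was 6.81, against 6.16 and 6.15 in the other 2, and without it the difference of msp-36 was 0.68 in place of 1.08. The msp-36 call ended under 6 alternatives. msp-78 differed by 1.26 ± 0.33, and its call ended under 7 alternatives. Among 56 other sperm genes 2 were lower (3.57%, near the 3.72% of all genes) and 0 higher. These were spe-44, a transcription factor of the spermatocyte programme, at -1.16 ± 0.23, and smz-1, which lies beside it on chromosome IV, at -0.84 ± 0.24. The smz-1 call ended under 8 alternatives. The lower count was 1 without N2 L1 replicate 2 or 3, lin-35(n745) L1 replicate 3, N2 L4 replicate 1 or 3, or lin-35(n745) L4 replicate 1 or 2, and 1 was higher without N2 L1 replicate 2 or N2 L4 replicate 2.

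Of 52 small RNA and RNA interference genes 1 was higher and 2 were lower in the difference (1.92% and 3.85%, near the shares of all genes), with a median of -0.15. At L1 19 were higher and 4 lower in the mutant, and at L4 12 and 4. hrde-1, a nuclear Argonaute of the germ line, was 2.99 ± 0.10 higher in the mutant at L1 and 1.77 ± 0.10 at L4, and the difference was -1.21 ± 0.14 (limma adjusted p = 1.51e-05). csr-1, another Argonaute, differed by -1.15 ± 0.18. The higher member was sid-2, which encodes an intestinal receptor for double-stranded RNA, at 0.58 ± 0.16, and its call ended under 7 alternatives, including without N2 L1 replicate 1 or 3, lin-35(n745) L1 replicate 3, N2 L4 replicate 2 or 3, or lin-35(n745) L4 replicate 3. Without lin-35(n745) L1 replicate 2 the lower count was 6.

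Replication and mitosis genes are among the best known targets of pocket proteins. Of 50 replication and S phase genes 38 were higher at L1 and 33 at L4, beside 8.72% and 8.24% of all genes. The strain effect medians were 0.67 and 0.46. In the difference 3 were lower and 0 higher (6%, beside 3.72% of all genes), with a median of -0.16. The 3 were cdc-7, the kinase that fires origins, orc-5, a subunit of the origin recognition complex, and clsp-1, the worm claspin, whose call ended under 6 alternatives, each with 1 array left out. orc-5 was 7.47, 7.57 and 7.45 in N2 L1, 9.52, 9.23 and 9.31 in mutant L1, 8.57, 8.51 and 8.46 in N2 L4, and 9.72, 9.70 and 9.63 in mutant L4. The groups did not overlap at either stage, and the difference was -0.69 ± 0.14 (limma adjusted p = 0.00533). Without lin-35(n745) L1 replicate 2 the count was 6. Differences that did not pass included those of mcm-2, a subunit of the replicative helicase, at -0.34 ± 0.14, of cye-1, the worm cyclin E, at -0.48 ± 0.15, of pcn-1, the sliding clamp, at -0.14 ± 0.15, and of rnr-1, a ribonucleotide reductase subunit, at 0.27 ± 0.13.

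Mitosis genes were likewise often higher in the mutant. Of 74 members 54 were higher at L1 and 47 at L4, beside 8.72% and 8.24% of all genes. The strain effect medians were 0.70 and 0.47. In the difference 7 were lower and 0 higher (9.46%, beside 3.72% of all genes), with a median of -0.20. They included the kinetochore gene knl-3 at -0.84 ± 0.19, the central spindle gene cyk-4 at -0.73 ± 0.16, the spindle checkpoint gene mdf-1 at -0.66 ± 0.19 and the kinetochore gene kbp-3 at -0.57 ± 0.17. The mdf-1 call ended under 10 alternatives and the kbp-3 call under 13. All 7 had smaller excesses at L4, between 0.10 and 1.78, than at L1, between 0.75 and 2.35. The count was unstable. It was 13 without lin-35(n745) L1 replicate 2, 2 without replicate 1 or 3 of that group, and 3 without N2 L1 replicate 3 and 4 without replicate 1. It was 2 without N2 L4 replicate 1 or 2, 3 without N2 L4 replicate 3, 4 without lin-35(n745) L4 replicate 1 or 2 and 2 without replicate 3. A member was called higher without N2 L1 replicate 2, 1 in place of 0.

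Of 23 regulators of the G1 to S transition 3 were lower (13%, beside 3.72% of all genes) and 0 higher, with a median of -0.12. These were skr-2, a Skp1-related subunit of ubiquitin ligases, cki-2, an inhibitor of cyclin-dependent kinases, and cdc-25.1, a phosphatase that activates them. The cdc-25.1 call ended under 6 alternatives, each with 1 array left out. In the strain effects 9 of the 23 were higher and 2 lower at L1, and 6 were higher and 1 lower at L4. skr-2 was 7.71, 7.67 and 7.70 in N2 L1, 10.38, 10.01 and 9.71 in mutant L1, 9.97, 9.98 and 10.05 in N2 L4, and 10.56, 10.50 and 10.51 in mutant L4. Its excess was 2.34 ± 0.12 at L1 and 0.52 ± 0.12 at L4, a pattern like that of the germline genes above. Of 60 DNA damage and apoptosis genes 7 were lower and 1 higher (11.7% and 1.67%, beside 3.72% and 3.46% of all genes), with a median of -0.20. The lower members were led by the repair nuclease exo-3 at -1.26 ± 0.19 and the checkpoint clamp gene hus-1 at -0.90 ± 0.15. The higher member was nuc-1, which encodes a lysosomal DNase, at 1.08 ± 0.14. The lower count was 14 without lin-35(n745) L1 replicate 2. It was 3 without replicate 1 of that group, without N2 L4 replicate 1 or without lin-35(n745) L4 replicate 2, and 4 without lin-35(n745) L4 replicate 3. Of 33 synMuv and DREAM genes, which encode partners of LIN-35 and related factors, 0 passed in either direction with limma (1 higher and 6 lower at an unadjusted p under 0.05). The list median was -0.11, and 12 were higher in the mutant at L1 against 9 at L4. Without N2 L1 replicate 1 or lin-35(n745) L1 replicate 3 1 was higher, and without N2 L4 replicate 3 1 was lower.

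A second large group of lower genes was low in N2 at both stages and raised in the mutant at L1. These were 14 of 24 measured genes of the pals family list. Several pals genes belong to the intracellular pathogen response, a programme worms switch on against microsporidia and viruses. For pals-2 the values were 3.81, 3.98 and 3.72 in N2 L1 and 7.78, 7.53 and 6.75 in mutant L1. At L4 they were 3.55, 3.66 and 3.81 in N2 and 4.30, 4.36 and 4.44 in the mutant. The mutant was above N2 without overlap at both stages, but by 3.52 ± 0.18 at L1, an 11.5-fold excess, and by 0.69 ± 0.18 at L4. The difference was -2.83 ± 0.25 (limma adjusted p = 3.75e-07). The neighbouring genes pals-27 and pals-28 on chromosome III differed by -2.76 ± 0.35 and -2.39 ± 0.39.

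The list of the pals family, which also holds eol-1, had 24 measured members. In the difference 14 were lower and 1 was higher (58.3% and 4.17%, beside 3.72% and 3.46% of all genes), with a median of -1.37. At L1 20 of the 24 were higher in the mutant and at L4 16 were, beside 8.72% and 8.24% of all genes. The strain effect medians were 2.25 and 0.75. The 14 had N2 means between 3.10 and 5.92 at both stages. The higher member, pals-23, named after its values were seen, had an L1 strain effect of 0.07 and an L4 effect of 1.31. With probe sets limited to those above the median mean level, 1 member was lower in place of 14. Members of lower level were left out by this limit and were not tested in it. The list's mean was 6.99, 6.82 and 5.97 in the 3 mutant L1 arrays, so replicate 3 was the lowest, against 4.39 to 4.41 in N2 L1.

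eol-1, which encodes a protein related to decapping exonucleases and was chosen after its values were seen, kept more of its excess. Its values were 6.07, 5.76 and 5.92 in N2 L1, 11.10, 10.94 and 9.59 in mutant L1, 5.11, 5.25 and 5.13 in N2 L4, and 8.16, 8.32 and 8.50 in mutant L4. The excess was 4.62 ± 0.24 at L1 and 3.16 ± 0.24 at L4, and the difference was -1.46 ± 0.34 (limma adjusted p = 0.011). F26F2.4, a gene without a known function, was 4.00, 4.05 and 4.10 in N2 L1, 9.79, 9.90 and 7.83 in mutant L1, 3.84, 3.87 and 3.97 in N2 L4, and 6.42, 6.23 and 5.999 in mutant L4. Replicate 3 was again the lowest mutant L1 array, and the difference was -2.80 ± 0.45 (limma adjusted p = 0.000447). Its neighbour F26F2.5 differed by -2.85 ± 0.56 and C43D7.4 by -3.31 ± 0.59. For both, mutant L1 replicate 3, at 4.76 and 5.07, lay more than 2 log2 units below the other 2 arrays. The SD over the mutant L1 arrays was 1.48 for F26F2.5 and 1.55 for C43D7.4, while the SEs use a spread shared by all groups. The neighbours ddn-1 and B0507.8 on chromosome V, chosen after their values were seen, differed by -1.77 ± 0.29 and -2.42 ± 0.41. Their excess at L1 was 5.72 and 5.44, among the largest strain effects of these genes, and at L4 3.95 and 3.01.

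**Figure D3:**
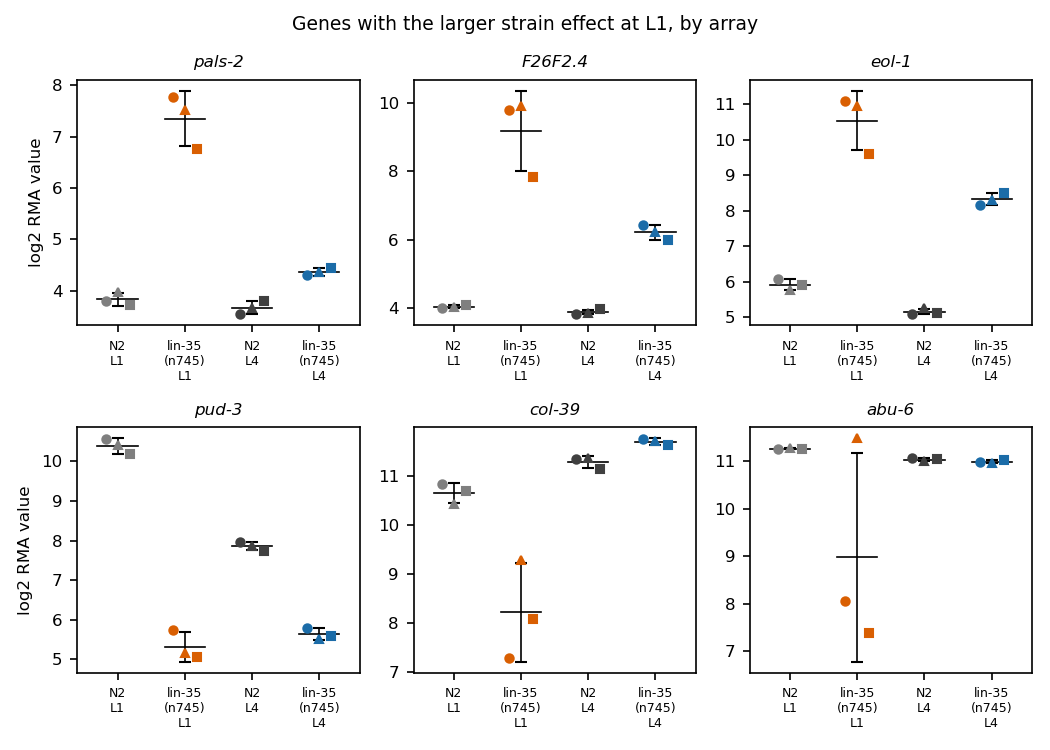
Log2 RMA values of 6 genes in the 12 larval arrays, with group mean, SD over 3 arrays and replicate symbols (circles, triangles and squares for replicates 1, 2 and 3). pals-2, F26F2.4 and eol-1 are raised in the mutant more at L1, where replicate 3 is lowest, than at L4, pud-3 and col-39 are reduced there, and abu-6, whose difference did not pass, has mutant L1 arrays from 7.39 to 11.48.

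The highest differences included genes with a deficit in the mutant at L1. pud-3, known for being more abundant in daf-2 insulin receptor mutants, was 10.57, 10.42 and 10.19 in N2 L1 and 5.74, 5.16 and 5.05 in mutant L1. At L4 it was 7.97, 7.87 and 7.74 in N2 and 5.80, 5.52 and 5.60 in the mutant. The mutant was below N2 without overlap at both stages, at much the same level, while the N2 level was lower at L4 by an amount of -2.53. The deficit was -5.07 ± 0.15 at L1 (33.7-fold) and -2.22 ± 0.15 at L4 (4.67-fold), and the difference was 2.85 ± 0.21 (limma adjusted p = 3.11e-08). The adjacent pud-4 differed by 2.70 ± 0.27. The saposin-like gene spp-12 was 8.57, 8.35 and 8.25 in N2 L1, 6.98, 5.19 and 4.10 in mutant L1, 4.68, 4.68 and 4.76 in N2 L4, and 4.30, 4.12 and 4.15 in mutant L4. Its difference was 2.45 ± 0.55 (limma adjusted p = 0.00912), with mutant L1 arrays from 4.10 to 6.98, and its call ended with an intensity trend and robust spread in the model.

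More collagens were lower in the mutant at L1 than at L4. Collagens form the larval cuticle and are made in waves with each molt. Of 152 measured collagens and cuticle genes 25 were higher and 12 lower in the difference (16.4% and 7.89%, beside 3.46% and 3.72% of all genes). The median was 0.26, and 19 of the 25 had the larger strain effect at L1. At L1 37 were lower and 3 higher in the mutant, and at L4 22 were lower and 9 higher. col-39 was 10.84, 10.42 and 10.68 in N2 L1, 7.28, 9.29 and 8.08 in mutant L1, 11.34, 11.36 and 11.13 in N2 L4, and 11.75, 11.71 and 11.62 in mutant L4. The mutant L1 arrays were all below N2, replicate 2 least so, and the difference was 2.84 ± 0.44 (limma adjusted p = 0.000281). col-91 and col-130 differed by 2.36 ± 0.34 and 2.27 ± 0.51, and the col-130 call ended under 1 alternative. The lower members were led by col-181, which is described with the L4 genes. Without mutant L1 replicate 2 the number of higher members was 48.

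In mutant L1 replicate 2, some of these genes were at or above the N2 level. The ground-like gene grl-21, a hedgehog-related gene, was 9.97, 9.51 and 9.87 in N2 L1 and 6.36, 10.03 and 6.70 in mutant L1. At L4 it was 10.21, 10.11 and 10.05 in N2 and 10.97, 10.75 and 10.83 in the mutant. Only replicates 1 and 3 of the mutant L1 group were low, and the difference of 2.81 ± 0.77 (limma adjusted p = 0.0314) lost its call under 12 of the alternatives. dbd-20, another of the highest genes, had the same split at 7.22, 10.13 and 6.59, and its call ended under 14. F48G7.8 and W08E12.2, with differences of 3.32 ± 0.57 and 3.05 ± 0.58, were also split in mutant L1. F48G7.8 was 7.50, 7.66 and 7.64 in N2 L1 and 5.77, 8.36 and 5.83 in mutant L1. W08E12.2 was 7.27, 7.35 and 7.19 in N2 L1 and 6.31, 8.79 and 6.10 in mutant L1. C32H11.4, at 3.02 ± 0.49, was 8.68, 9.16 and 6.80 in mutant L1, with replicate 3 the lowest. Their L4 strain effects were 2.38, 2.85 and 2.87. abu-6, a gene known from blocked protein folding responses and chosen after its values were seen, was 8.06, 11.48 and 7.39 against 11.26 to 11.28 in N2 L1, and its difference of 2.24 ± 0.83 did not pass (limma adjusted p = 0.124). Mutant L1 replicate 2 had the lowest value of acdh-1, at 4.32, with 11.96 and 9.80 in replicates 1 and 3. This acyl-CoA dehydrogenase gene, also chosen after its values were seen, was 12.56 to 12.68 in N2 L1. The difference of acdh-1 was 2.96 ± 1.46 and did not pass (limma adjusted p = 0.292).

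Genes that act in molting gave 9 higher and 11 lower of 80 (11.2% and 13.8%, beside 3.46% and 3.72% of all genes), with a median of 0.01. The higher members included the astacin proteases nas-6, nas-1, nas-30 and nas-38. nas-6 was 10.18, 10.43 and 10.29 in N2 L1, 9.67, 10.23 and 9.73 in mutant L1, 7.32, 7.32 and 7.06 in N2 L4, and 8.59, 8.41 and 8.44 in mutant L4, and its difference was 1.67 ± 0.19 (limma adjusted p = 9.22e-06). The calls of nas-1 and nas-30 ended under 11 alternatives each and that of nas-38 under 15. The higher count was 16 without mutant L1 replicate 2. It was 5 without N2 L1 replicate 2 or N2 L4 replicate 3, and 4 without N2 L1 replicate 3, mutant L1 replicate 1 or 3, N2 L4 replicate 2, or mutant L4 replicate 2 or 3. The lower count was 7 without N2 L1 replicate 1 or mutant L1 replicate 1 or 3, 4 without N2 L4 replicate 2 and 5 without mutant L4 replicate 3. Of 81 hedgehog-related and patched-related genes 9 were higher and 6 lower (11.1% and 7.41%), with a median of 0.09. The higher count was 14 without mutant L1 replicate 2 and 5 without N2 L1 replicate 3 or mutant L4 replicate 3. The lower members were led by ptr-22 at -2.06 ± 0.51, which was -1.31 without mutant L1 replicate 3 and whose call ended under 2 alternatives. Of 52 cuticlin and zona pellucida genes 2 were higher and 2 lower (3.85% each, near the shares of all genes), with a median of 0.01. Without mutant L1 replicate 2 these counts were 5 and 7. The lower count was 4 without N2 L1 replicate 2 and 1 without mutant L1 replicate 1, N2 L4 replicate 2 or mutant L4 replicate 3.

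A few genes were higher in N2 at L4 than at L1, and in the mutant rose less, stayed level or fell. The most negative difference among the 17118 genes belonged to clec-47, which encodes a C-type lectin. Its values were 8.33, 7.32 and 7.56 in N2 L1 and 8.32, 7.78 and 8.94 in mutant L1, where the groups overlapped. At L4 they were 10.54, 10.59 and 10.68 in N2 and 4.83, 5.33 and 5.13 in the mutant, which was below both L1 groups. The strain effect was 0.62 ± 0.23 at L1 and -5.51 ± 0.23 at L4, a 45.4-fold deficit, and the difference was -6.12 ± 0.33 (limma adjusted p = 2.66e-10). asp-12, an aspartyl protease gene, was 7.51, 7.36 and 7.44 in N2 L1, 7.67, 7.18 and 7.35 in mutant L1, 11.79, 11.77 and 11.86 in N2 L4, and 7.49, 7.42 and 7.41 in mutant L4. The arrays of the 3 groups other than N2 L4 lay between 7.18 and 7.67, and the difference was -4.33 ± 0.21 (limma adjusted p = 1.57e-10).

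nspe-7, a nematode-specific peptide family gene, followed with 4.73, 4.79 and 4.94 in N2 L1, 5.06, 4.94 and 6.83 in mutant L1, 9.29, 9.17 and 9.27 in N2 L4, and 6.09, 5.70 and 5.59 in mutant L4. Its difference was -4.24 ± 0.43 (limma adjusted p = 2.24e-06). Y17D7B.7, without a known function, differed by -3.03 ± 0.16, with N2 L4 arrays at 10.58, 10.45 and 10.32 and mutant L4 arrays at 7.21, 7.22 and 7.35. The collagen col-181 was 8.79, 8.93 and 8.93 in N2 L4 and 6.85, 6.76 and 6.91 in mutant L4, and its difference was -1.93 ± 0.19 (limma adjusted p = 1.22e-06). For all 5 genes the L1 strain effect did not pass.

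The converse pattern, an excess in the mutant at L4 that was smaller or did not pass at L1, was found among immune and insulin-related genes. irg-3, a gene named for its response to infection, was 8.44, 8.52 and 8.29 in N2 L1 and 8.97, 8.88 and 7.91 in mutant L1, where the groups overlapped. At L4 it was 8.29, 8.32 and 8.40 in N2 and 11.12, 11.16 and 11.22 in the mutant. The strain effect at L4 was 2.83 ± 0.20, a 7.11-fold excess, and the difference was 2.66 ± 0.29 (limma adjusted p = 4.95e-06). B0024.4, whose function is not known, was 4.99, 5.08 and 5.15 in N2 L4 and 8.38, 8.42 and 8.16 in mutant L4, with every L1 array of either strain between 4.07 and 4.68. Its difference was 2.92 ± 0.24 (limma adjusted p = 7.91e-08).

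Of 100 innate immunity genes 19 were higher and 6 lower in the difference (19% and 6%, beside 3.46% and 3.72% of all genes). The median was 0.17, and 16 of the 19 had the larger strain effect at L4. At L4 31 were higher and 8 lower in the mutant, against 12 and 9 at L1. The lysozyme gene lys-7, also a target of the FOXO factor DAF-16, was 10.75, 10.83 and 10.75 in N2 L1, 11.47, 11.53 and 10.52 in mutant L1, 9.33, 9.58 and 9.66 in N2 L4, and 11.74, 11.69 and 11.72 in mutant L4. Its groups were apart at L4 only, and the difference was 1.79 ± 0.30 (limma adjusted p = 0.000636). The lower members were led by irg-5 and irg-4. irg-5 was 7.07, 7.07 and 7.14 in N2 L1, 7.89, 7.71 and 8.26 in mutant L1, 9.06, 9.19 and 9.18 in N2 L4, and 7.74, 7.64 and 7.62 in mutant L4. The mutant was thus above N2 at L1 and below it at L4, and the difference was -2.34 ± 0.19 (limma adjusted p = 9.79e-08).

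C-type lectins, a large family with members induced by bacteria, gave 23 higher and 7 lower of 220. These are 10.5% and 3.18%, beside 3.46% and 3.72% of all genes. The median was 0.11, and 19 of the 23 had the larger effect at L4. clec-3 was 4.22, 3.88 and 4.20 in N2 L1, 4.14, 3.90 and 4.07 in mutant L1, 4.64, 4.77 and 4.54 in N2 L4, and 6.69, 6.45 and 6.51 in mutant L4. Its difference was 1.97 ± 0.15 (limma adjusted p = 4.04e-08). The neighbours clec-70 and clec-71 on chromosome IV had opposite differences of -1.79 and 1.16.

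**Figure D4:**
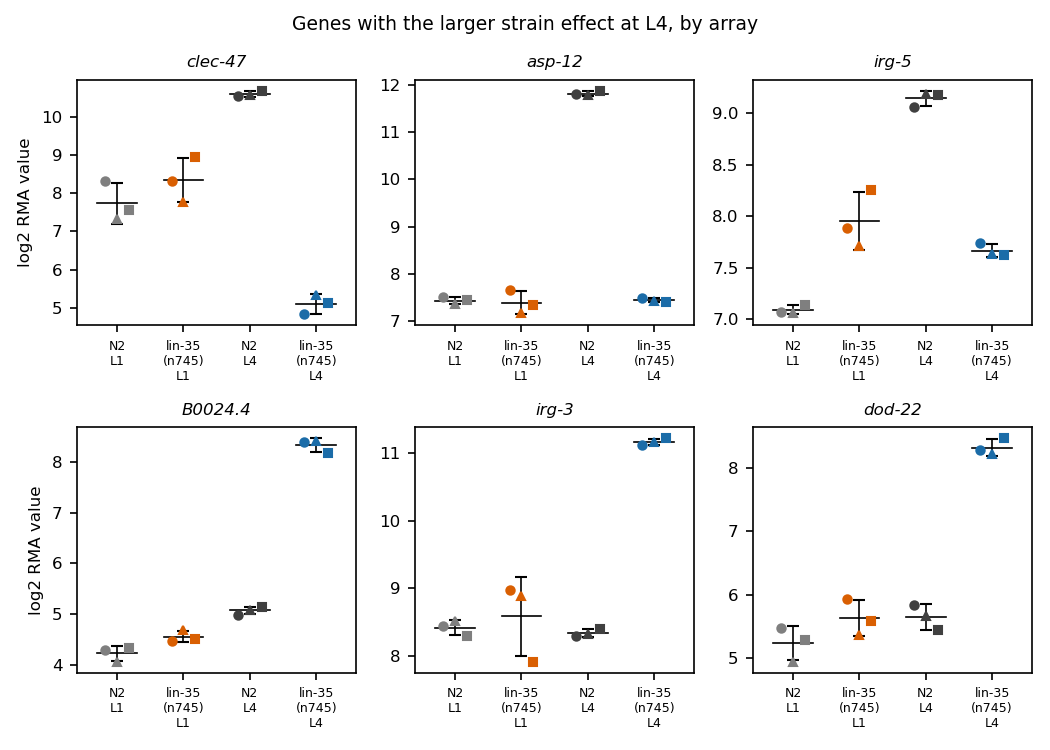
Log2 RMA values of 6 genes in the 12 larval arrays, with group mean, SD over 3 arrays and replicate symbols (circles, triangles and squares for replicates 1, 2 and 3). clec-47, asp-12 and irg-5 are high in N2 L4 and not in mutant L4, whereas B0024.4, irg-3 and dod-22 are high in mutant L4, at 8.16 to 8.42 for B0024.4 against 4.99 to 5.15 in N2 L4.

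Insulin-like peptides are ligands of the DAF-2 receptor, whose signal holds DAF-16 out of the nucleus. Of 24 measured peptide genes 4 were higher and 1 lower (16.7% and 4.17%, beside 3.46% and 3.72% of all genes), with a median of -0.06. ins-35 was 9.87, 10.001 and 9.82 in N2 L1 and 10.11, 9.70 and 9.88 in mutant L1. At L4 it was 8.84, 8.66 and 8.58 in N2 and 10.80, 10.68 and 10.85 in the mutant. The strains overlapped at L1 and did not at L4, and the difference was 2.08 ± 0.19 (limma adjusted p = 5.34e-07). daf-28 was 8.76, 9.03 and 8.75 in N2 L1, 8.41, 8.41 and 8.34 in mutant L1, 6.20, 6.31 and 6.28 in N2 L4, and 7.13, 7.03 and 7.15 in mutant L4. It moved from a deficit at L1 to an excess at L4, a difference of 1.29 ± 0.17 (limma adjusted p = 4.72e-05). ins-33 and ins-7 differed by 0.90 ± 0.22 and 0.88 ± 0.16. The lower member was ins-6, named after its value was seen, at -0.77, and its call ended without any of N2 L1 replicates 1, 2 and 3, mutant L1 replicate 1, N2 L4 replicates 1, 2 and 3 or mutant L4 replicate 2.

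Of 38 genes of the insulin pathway and targets of DAF-16 7 were higher (18.4%, beside 3.46% of all genes) and 0 lower. The median was -0.01. All 7 had the larger strain effect at L4. dod-22, one of several genes named for acting downstream of DAF-16, was 5.47, 4.95 and 5.29 in N2 L1, 5.93, 5.38 and 5.58 in mutant L1, 5.85, 5.66 and 5.45 in N2 L4, and 8.28, 8.22 and 8.46 in mutant L4. Its difference was 2.27 ± 0.21 (limma adjusted p = 4.62e-07). dod-24 and dod-3 differed by 2.25 ± 0.31 and 1.80 ± 0.37. Without mutant L1 replicate 3 the list's lower count was 1 in place of 0.

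Of 77 heat shock and stress genes 12 were higher and 2 lower (15.6% and 2.6%, beside 3.46% and 3.72% of all genes). The median was 0.04, and 9 of the 12 had the larger strain effect at L4. Most of the higher members were glutathione transferases, which detoxify electrophiles. gst-38 was 7.96, 8.06 and 8.08 in N2 L1, 9.93, 9.86 and 9.44 in mutant L1, 8.09, 7.85 and 7.61 in N2 L4, and 11.31, 11.26 and 11.55 in mutant L4. The mutant was above N2 at both stages, by 1.71 ± 0.17 and by 3.52 ± 0.17, and the difference was 1.81 ± 0.24 (limma adjusted p = 5e-05). gst-4, a reporter gene of the oxidative stress factor SKN-1, differed by 1.74 ± 0.31. gpdh-1, an enzyme of glycerol synthesis induced by osmotic stress, differed by 1.49 ± 0.42, or by 0.93 without mutant L1 replicate 2. Its call ended under 9 alternatives, among them leaving out N2 L1 replicate 1 or 3, N2 L4 replicate 2 or 3, or any mutant L4 array. The small heat shock gene hsp-12.3 was lower at -1.37 ± 0.27. Without mutant L1 replicate 2 the lower count was 6.

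Cytochrome P450 and UDP-glucuronosyltransferase genes, which modify foreign compounds, gave 9 higher and 19 lower of 137, with a median of -0.04. These are 6.57% and 13.9%, beside 3.46% and 3.72% of all genes. cyp-14A5 was 9.23, 9.34 and 9.14 in N2 L1, 6.88, 7.18 and 7.34 in mutant L1, 6.73, 6.79 and 6.87 in N2 L4, and 7.96, 7.56 and 7.68 in mutant L4. It was thus below N2 at L1 by -2.1 ± 0.19 and above it at L4 by 0.94 ± 0.19, and the difference was 3.04 ± 0.27 (limma adjusted p = 3.29e-07). The neighbouring transferase genes ugt-8, ugt-14 and ugt-13 on chromosome V were all lower, at -1.64, -0.68 and -1.50. The lower count was 32 without mutant L1 replicate 2, 11 without N2 L1 replicate 2 or 3 or N2 L4 replicate 1, and 12 without N2 L4 replicate 2 or mutant L4 replicate 1 or 2. The higher count was 15 without mutant L1 replicate 3.

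Among tissue lists, 64 intestine genes gave 7 higher and 5 lower (10.9% and 7.81%, beside 3.46% and 3.72% of all genes). Their median was 0.11, and they were led by the pud genes and asp-12 above. The higher count was 12 without mutant L1 replicate 1 and the lower count 8 without N2 L1 replicate 1. The 56 genes of fasting and lipid metabolism gave 3 higher and 6 lower (5.36% and 10.7%) with a median of 0.02. The lipase gene lipl-2 was higher at 1.19 ± 0.16, and fat-5, a fatty acid desaturase, was lower at -1.3 ± 0.30. The higher count there was 11 without mutant L1 replicate 1 and 5 without replicate 2. Muscle gave 1 higher of 48 (2.08%) and neurons 1 higher and 1 lower of 66 (1.52% each). Hypodermis and seam cells gave 1 higher and 2 lower of 37 (2.7% and 5.41%). The medians of these lists were 0.14, 0.04 and -0.08. The muscle member, zyx-1, lost its call under 11 alternatives, which include leaving out any larval array other than N2 L1 replicate 1 and mutant L1 replicates 1 and 2, and without mutant L1 replicate 2 the count was 3. The neuron count of 1 higher was 2 without mutant L1 replicate 2. The lower neuron member, odr-10, an odorant receptor, lost its call without any larval array other than N2 L1 replicate 2 and mutant L1 replicates 1 and 2. For hypodermis and seam cells the higher count was 2 without N2 L1 replicate 1 or mutant L1 replicate 2 or 3, and the lower count 4 without mutant L1 replicate 2. Neuropeptides gave 3 higher of 86 (3.49%, near the 3.46% of all genes) with a median of -0.11. These were nlp-29, nlp-28 and nlp-26, the first at 1.38 ± 0.29, while the calls of nlp-28 and nlp-26 ended under 14 and 10 alternatives. Without mutant L1 replicate 2 the neuropeptide counts were 6 higher and 7 lower, and without mutant L4 replicate 1 they were 1 and 1. The higher count was also 1 without N2 L1 replicate 1, mutant L1 replicate 3, N2 L4 replicate 2 or 3, or mutant L4 replicate 3. Vulval, gonad and heterochronic genes gave 2 higher of 57 (3.51%, near the share of all genes), with a list median of -0.03. These were lin-46 at 1.00 ± 0.18 and lip-1 at 0.74 ± 0.21. The lip-1 call ended under 10 alternatives, so that 1 was higher without N2 L1 replicate 2 or 3, mutant L1 replicate 1 or 2, N2 L4 replicate 1 or 3, or any mutant L4 array. The lower count was 3 without mutant L1 replicate 2 and 1 without N2 L1 replicate 2.

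Large families and housekeeping lists had shares called at or under that of all genes. F-box, MATH and BTB genes gave 11 higher and 16 lower of 464 with a median of 0.02, and 27 lower without mutant L1 replicate 3. In that list the higher count was 5 without mutant L4 replicate 3, 6 without N2 L4 replicate 1, and 7 without N2 L1 replicate 1 or 3 or N2 L4 replicate 3. Nuclear hormone receptors gave 6 higher and 5 lower of 254 with a median of -0.02, and 17 lower without mutant L1 replicate 2. There the lower count was 2 or 3 without N2 L1 replicate 1 or 3, mutant L1 replicate 1 or 3, any N2 L4 array or mutant L4 replicate 2, and the higher count 3 without N2 L4 replicate 1 or 2. Chemoreceptors gave 6 higher and 4 lower of 1259 with a median of 0.02. Their higher count was 1 without N2 L4 replicate 2 and 3 without N2 L1 replicate 1 or 3 or N2 L4 replicate 3. Their lower count was 7 without mutant L1 replicate 1 and 2 without N2 L1 replicate 3, mutant L1 replicate 3, N2 L4 replicate 1 or mutant L4 replicate 2. Histones gave 1 higher of 35 and the proteasome 1 lower of 33, with medians of -0.01 and 0.01. Of 63 cytosolic ribosomal protein genes 0 passed with limma, with 0 also at an unadjusted p under 0.05, and the median was -0.04. The histone member, hil-7, lost its call without any N2 L1 array, mutant L1 replicate 3, or replicate 2 or 3 of either L4 group, and 1 histone was lower without mutant L1 replicate 2 or 3. The proteasome member, rpn-6.2, lost its call without N2 L1 replicate 3, mutant L1 replicate 3, N2 L4 replicate 2 or 3, or mutant L4 replicate 2. Among lists with 0 calls in a direction, an unadjusted p under 0.05 was reached by 1 replication, 2 G1 to S, 2 mitosis, 4 P granule, 0 meiosis and 3 other sperm genes on the higher side. On the lower side it was reached by 0 major sperm protein genes, 0 muscle genes, 9 neuropeptides, 1 DAF-16 target, 3 histones and 8 vulval and heterochronic genes. For the proteasome, 0 were higher by either measure.

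**Figure D5:**
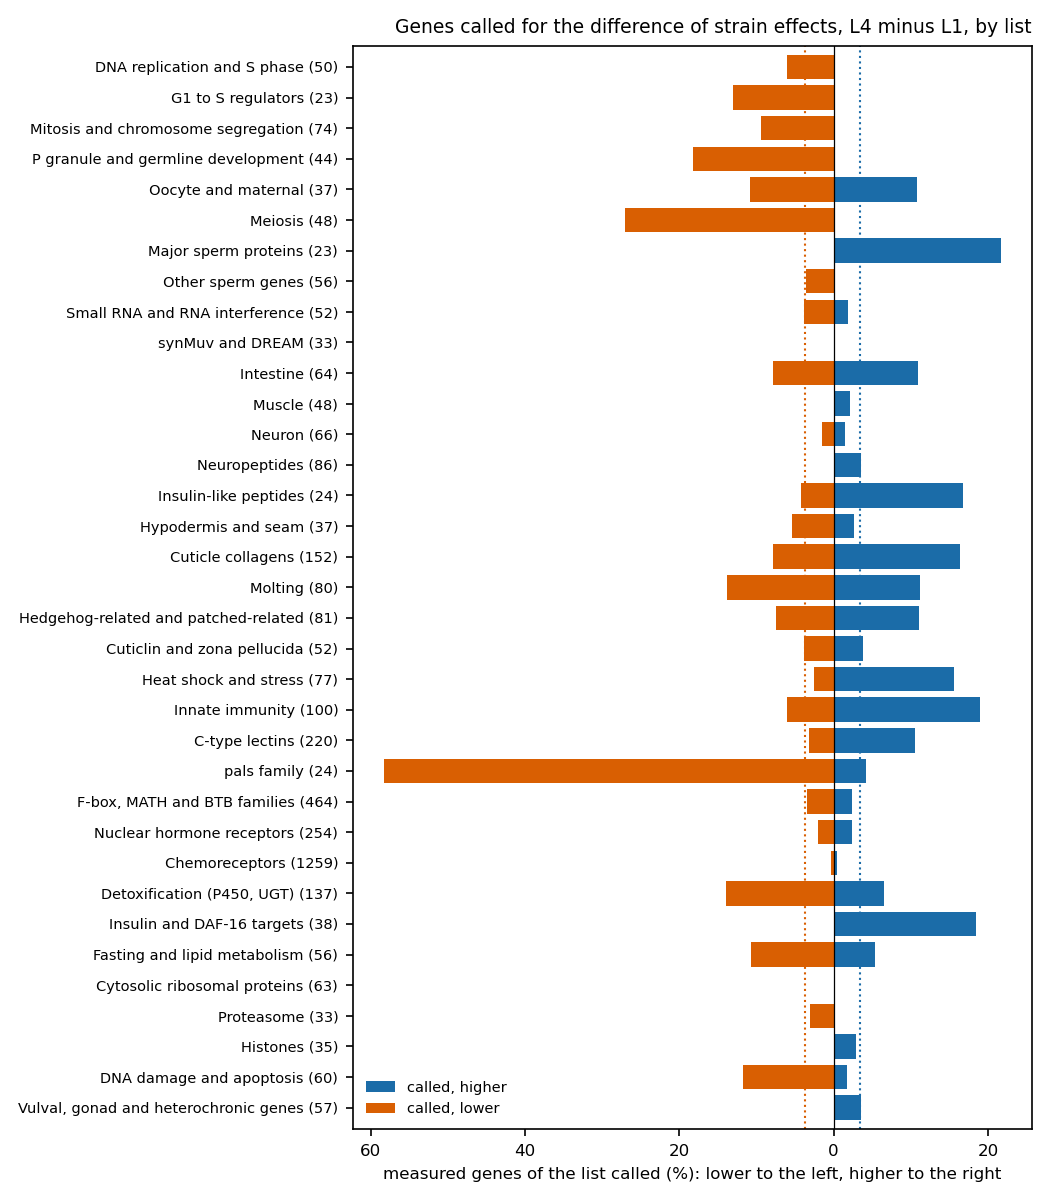
Share of the measured genes of each of the 35 lists (number measured in parentheses) that were called for the difference of strain effects, lower to the left and higher to the right, in percent. Dotted lines mark the share of all genes, 3.72% lower and 3.46% higher; the pals family reaches 58.3% lower and meiosis 27.1%, while replication and S phase is at 6%.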

How the data were processed

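Total RNA of whole worms was labelled and hybridised to Affymetrix arrays. The deposited values were made by the authors with RMA, per the submitters' processing notes, and were read as log2 from their range of 2.55 to 15.02, since no source names the base. Version and settings of RMA: not given in the sources used here. Scanner files were not used here. Without a detection call in RMA output, low values may be background. Precision is limited by the number of arrays.

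With limma 3.58.1 (R 4.3.3), 6 group means were estimated from the 18 arrays, with 12 residual and 7.66 prior degrees of freedom. P-values are two-sided, adjusted by Benjamini-Hochberg over 22548 probe sets, and SEs are those of this model. The embryo arrays enter only the estimate of the spread. The strain effects at L1 and L4 share no arrays with each other, but the difference is made of both, so all are given side by side. Probe sets were named from the platform annotation: 20766 name 1 gene, 887 several and 895 none. Of the first, 20701 were found in RefSeq (WBcel235), which served for names, chromosomes and neighbours only. Each of 17118 genes takes the values of its brightest probe set by the 18-array mean, and 2981 have several; 0 genes had probe sets called in opposite directions. All value columns belong to the 18 samples, so 0 were left unused.

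The rule for naming took the 12 highest and 12 lowest called genes, up to 4 called genes per list (2 where none passed), 5 genes per direction with opposite strain effects, and lin-35, pgl-1, pgl-3, mcm-2, cye-1, rnr-1, pcn-1, msp-78, vit-2 and pud-3. The text gives a selection of these genes. The comparison, the 35 lists and the named genes were chosen with earlier results of these data known, so their counts are descriptions. Some genes are in several lists. Replicate numbers were not used to pair the samples in the main model. Independent growth is stated for the 3 samples of a group. The procedure was run on data simulated with the same spread per probe set in every group. It therefore cannot show how the wider spread of the lin-35(n745) L1 arrays affects the calls. Promoter sequences were not used here.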

Additional observations from a re-analysis of the deposited data

Results flagged for a closer look

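Among genes that passed at L1 and at L4 in opposite directions, 5 in each direction were taken by the size of the smaller of their effects. There were 76 such genes, 50 with a higher and 26 with a lower difference. All 76 passed for the difference with limma, but strain effects called in opposite directions chose them, so their differences are given as a description.

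The 5 that went from a deficit in lin-35(n745) at L1 to an excess at L4 were cyp-14A5 at 3.04, F48G7.5 at 2.39, the lipase-related lips-15 at 2.06, the transthyretin-related ttr-44 at 2.03 and K07E1.1 at 1.86. The cyp-14A5 arrays of the strains did not overlap at either stage. For F48G7.5, mutant L1 replicate 2 was at 9.09, above N2 L1 at 8.85 to 9.07, and replicates 1 and 3 were at 7.14 and 6.94. For lips-15 and ttr-44 replicate 3 was the lowest mutant L1 array, at 7.58 and 8.51.

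The 5 that went from an excess to a deficit were the short-chain dehydrogenase dhs-23 at -2.60, irg-5 at -2.34, irg-4 at -2.23, the transferase ugt-13 at -1.50 and sdz-27 at -1.50. In all 5, replicate 3 was the highest mutant L1 array, for dhs-23 at 8.21 against 7.08 and 6.83. For irg-4 the values were 11.67, 11.57 and 11.65 in N2 L1, 12.65, 12.28 and 13.24 in mutant L1, 10.99, 10.88 and 10.90 in N2 L4, and 9.67, 9.89 and 9.81 in mutant L4. The part of single L1 arrays in these reversals beyond leaving them out was not tested.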

How the results depend on the processing

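Of 134 named genes called, 102 kept the call under every alternative fit at an adjusted p under 0.05 that held their probe set. The other 32 lost it under at least 1 of these fits. The 23 alternatives also include stricter thresholds and a count over all probe sets of a gene, which do not enter these 2 numbers. The limit to probe sets above the median mean level leaves out genes of lower level, whose calls were not tested there. The count of 1515 probe sets was 2447 without lin-35(n745) L1 replicate 2 (1305 lower), 698 at an adjusted p under 0.01 (352 higher, 346 lower), and 534 at an adjusted p under 0.05 with a difference of at least 1 log2 unit (322 higher, 212 lower); both of the latter are stricter by construction. With 1 array left out the count ran from 1021 to 2447, higher from 512 to 1142 and lower from 509 to 1305. Centring the arrays gave 796 higher and 719 lower. Differences near 0 changed sign: lin-35 was -0.000495 after repeated quantile normalization and -0.142 to 0.21 with 1 array left out, vit-2 was -0.869 to 0.132 and rnh-1.3 -0.022 to 0.149, with none passing. The sign turned for lin-35 without lin-35(n745) L1 replicate 1 (-0.00672) or 2 (-0.142), N2 L4 replicate 3 (-0.0106) or lin-35(n745) L4 replicate 1 (-0.0153), for vit-2 without N2 L1 replicate 2 and for rnh-1.3 without lin-35(n745) L1 replicate 3. The cause was not tested. Replicate numbers as a replicate block gave 1548 probe sets, and 1520 within stage. Deviations of same-numbered arrays of the strains correlated at -0.0369 to 0.0551 at L1 and 0.0547 to 0.269 at L4. Those of differently numbered arrays correlated at -0.0657 to 0.0447 at L1 and -0.231 to 0.181 at L4. Whether same-numbered arrays share a batch was not tested. 2 named calls ended under the block and 6 under the block within stage.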

Other observations

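Embryo arrays, which the comparison does not use, gave these strain differences for genes described at L4. B0024.4 was 3.23 higher in lin-35(n745) embryos than in N2 embryos, nspe-7 3.02 higher although its L4 effect was -3.45, and irg-5 2.62 higher with larval effects of 0.86 at L1 and -1.48 at L4. asp-12 was 0.79 and clec-47 -0.13 in embryos (means of 3 arrays each, with no test here).

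Several called genes are neighbours in the gene order of WBcel235: pgl-1 and him-3 on chromosome IV with differences of -2.19 and -3.22, zhp-2 and lotr-1 on chromosome I with -1.80 and -2.50, and C36C5.12 and C36C5.14 on chromosome V with 1.52 and 2.08. spp-12 and lbp-8 on chromosome V are neighbours with opposite differences of 2.45 and -1.18, and each call ended under 1 alternative. mbug-1, chosen after its values were seen, was 9.74, 9.85 and 9.78 in N2 L1, 10.83, 11.11 and 11.19 in mutant L1, 8.25, 8.26 and 8.41 in N2 L4, and 11.60, 11.83 and 11.91 in mutant L4, an excess of 1.25 and 3.47. No explanation of these values was tested.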
